A study of Mus musculus with 5 samples.

Results

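Chromosome 7 of the mouse, in genome build mm9, held 13018 of the 622792 WT1 CUT&RUN peaks in 4 deposited peak lists. Every peak listed on this chromosome was taken. The peaks in the top part of each list, selected on max signal down to the length of the shortest list, were also followed separately. A span of 6 Mb without any peak, chr7:40000001-46000000, was treated apart from the rest of the chromosome. The chromosome and this span were picked because earlier counts of the same peaks had shown them to be sparse and empty, so the low density and the empty span are described here and were not tested.

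The series mapped WT1 in M15 cells whose KTS isoforms had been altered by genome editing, called KTS minus in the labels and KTS-minus here, and in M15 cells themselves. Which isoform the edited cells still make, and whether they are 1 clone, is not given in the labels. M15 is a line of mesonephric epithelium from the mouse, made permanent with the large T antigen of polyoma virus, and the KTS-minus line shares that origin. Each line had 2 libraries made with the same WT1 antibody (Abcam ab89901), and 1 library of M15 cells made with IgG was not analysed here. In CUT&RUN, an antibody on permeabilised cells brings a nuclease to the bound protein, so that nearby DNA is released and sequenced. The labels do not tell whether the replicates are separate cultures, and their spread may therefore be technical.

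WT1 is a transcription factor with zinc fingers that kidney and gonad development require. Splicing adds or omits a KTS tripeptide between its last zinc fingers, and the form without KTS is the better known DNA binder. Mouse chromosome 7 is known for imprinted gene clusters and for large families of olfactory receptor, vomeronasal receptor and zinc-finger genes. In a later mouse assembly, GRCm38.p6, the RefSeq gene table gave chromosome 7 2030 protein-coding gene names, the most of the 19 autosomes, against 511 to 1782 on the others. That table uses other coordinates than the peak lists, so no peak was placed in or near a gene, and no DNA sequence was read.

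Chromosome 7 was poor in peaks in all 4 lists, and most strongly so in the KTS-minus line and in M15 replicate 2. KTS-minus replicate 1 had 6583 chromosome 7 peaks of 310999, and KTS-minus replicate 2 had 5172 of 244428. M15 replicate 1 had 233, or 3.62% of the shortest list, and M15 replicate 2 had 1030 of 60925. The chromosome made up 6.17% of the autosomal length covered by the lists, yet it held 2.27% and 2.33% of the autosomal peaks in the KTS-minus lists and 3.74% and 1.91% in the M15 lists. The lists give no read counts, so depth is unknown.

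Density was taken over the 152.5 Mb up to the last peak of any list. KTS-minus replicate 1 had 43.2 peaks per Mb on chromosome 7, against 122 over the other 18 autosomes pooled. KTS-minus replicate 2 had 33.9 per Mb, against 93.4 on the others. These are ratios of 0.353 and 0.363, and chromosome 7 was the 2nd lowest of the 19 autosomes in both lists.

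M15 replicate 1 had 1.53 peaks per Mb on chromosome 7, against 2.59 on the other autosomes, a ratio of 0.590. M15 replicate 2 had 6.75 per Mb, against 22.8, a ratio of 0.297. Chromosome 7 was 6th and 5th from the lowest in these lists. The mean ratio was 0.358 ± 0.00723 in KTS-minus and 0.443 ± 0.208 in M15 (SD, n = 2 each). The M15 replicates lay on either side of both KTS-minus values, so the lines did not differ in this ratio beyond the spread. Chromosome 12 was the lowest of the autosomes in all 4 lists. DNA copy number was not measured, so fewer copies of chromosome 7 and fewer peaks per copy cannot be told apart.

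**Figure D1:**
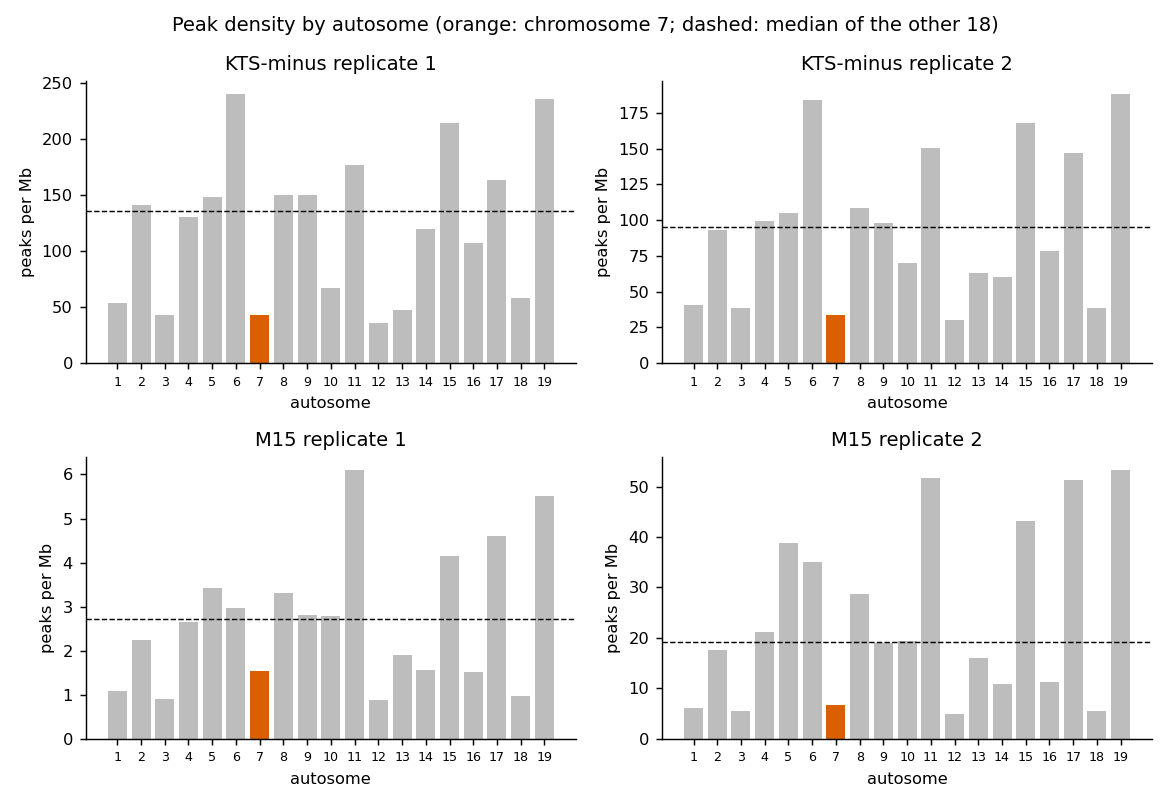
Peaks per Mb (vertical axis, a separate linear scale in each panel) on each of the 19 autosomes (horizontal axis) in the KTS-minus and M15 lists, 1 panel per library. Chromosome 7, in orange, stood at 43.2 and 33.9 peaks per Mb in KTS-minus and at 1.53 and 6.75 in M15, and lay under the median of the other 18 autosomes (dashed line) in every panel.

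The bases under peaks showed the same low level. Peaks covered 4.95% and 2.49% of chromosome 7 in the KTS-minus lists, against 16.8% and 7.35% of the other autosomes. In the M15 lists they covered 0.243% and 0.718%, against 0.495% and 2.64%. Neighbouring peaks also stood farther apart. The median distance between neighbours was 9758.5 bp and 15267 bp in the KTS-minus lists and 103233 bp and 43369 bp in the M15 lists. The share of neighbours within 10 kb was 50.9% and 39.2% in KTS-minus and 13.8% and 25.4% in M15. The median over the other autosomes was 83.3% and 67.5% in KTS-minus and 16.7% and 41.6% in M15, above chromosome 7 in every list.

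The lists differ in length by a wide margin, so each was also reduced to its peaks of highest max signal, as many as M15 replicate 1 holds. Max signal is the authors' own value for the highest coverage inside a peak, and it was used only to rank peaks within their own list. At equal length, chromosome 7 held 130 and 156 peaks in the KTS-minus lists and 233 and 204 in the M15 lists. These are 2.02% and 2.42% of the KTS-minus lists and 3.62% and 3.17% of the M15 lists. Both KTS-minus values lay below both M15 values, as was the case for 40.0% of the 20 chromosomes. The mean share was 2.22% ± 0.285 in KTS-minus and 3.39% ± 0.318 in M15 (SD, n = 2 each), a ratio of 0.654. With 2 libraries against 2, no exact permutation test can reach 0.05, so no test was run between the lines. The ratio was 0.340 when peaks were ranked by total signal instead, with shares of 0.924% in KTS-minus and 2.72% in M15. With chromosomes 6, 10 and X left out it was 0.780.

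The last chromosome 7 peak inside the reduced list had a max signal equal to that of the first one outside it, so total signal decided the order. In KTS-minus replicate 1 both had a max signal of 25, with a total signal of 30776 inside and 21979 outside. In KTS-minus replicate 2 both had 40, with 22557 inside and 13985 outside. In M15 replicate 2 both had 12, with 7547 inside and 7091 outside. M15 replicate 1 entered whole.

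Sparse did not mean uniformly weak. In M15 replicate 2, 19.8% of chromosome 7 peaks reached the reduced list, against 10.8% on the other autosomes pooled. Chromosome 7 had the highest such share of the 19. The autosomes sparser than chromosome 7 in this list, 1, 3, 12 and 18, also lay above the pooled share, at 12.9% to 18.5%. Chromosome 10, which was denser, stood at 15.2%. A raised share was thus not particular to chromosome 7. In the KTS-minus lists 1.97% and 3.02% of chromosome 7 peaks reached the reduced list, against 1.96% and 2.52% on the other autosomes. When the peaks were split into 4 equal groups by signal, the KTS-minus replicates did not show a shared trend. Chromosome 7 held 1.81% of the strongest group and 2.93% of the weakest in KTS-minus replicate 1, and 2.50% and 2.58% in KTS-minus replicate 2. In M15 it held 3.34% of the strongest and 3.27% of the weakest group in replicate 1, and 2.81% and 1.62% in replicate 2. The median max signal on chromosome 7 was 12 and 21 in KTS-minus and 36 and 8 in M15, and on the other autosomes 13 and 21 in KTS-minus and 35 and 7 in M15.

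Chromosome 7 peaks were somewhat narrower than those of the other autosomes pooled. Median widths of 1009 bp and 630 bp in the KTS-minus lists stood against 1107 bp and 677 bp on the other autosomes. The M15 lists had medians of 1463 bp and 963.5 bp, against 1672 bp and 1006 bp. Chromosome 7 had the narrowest median of the 19 autosomes in M15 replicate 1, the 2nd narrowest in M15 replicate 2 and the 6th narrowest in both KTS-minus lists. The autosomes narrower than it in both KTS-minus lists were 1, 3, 12, 13 and 18, which were sparse as well. Their medians were 984 to 1006 bp in replicate 1, at 35.4 to 58.4 peaks per Mb. In replicate 2 they were 596.5 to 621.5 bp, at 30.1 to 63.3 peaks per Mb. The ratio to the other autosomes averaged 0.921 ± 0.0135 in KTS-minus and 0.916 ± 0.0585 in M15 (SD, n = 2 each), with overlapping lines.

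In the lists of equal length the gap in width was larger in both KTS-minus lists and in M15 replicate 2. M15 replicate 1 enters whole, so its gap cannot change. The chromosome 7 medians were 977.5 bp and 964.5 bp in KTS-minus, against 2320 bp and 1122 bp on the other autosomes. In M15 they were 1463 bp and 1079 bp, against 1672 bp and 1541 bp. The ratio of 0.421 in KTS-minus replicate 1 was far from the 0.860 of its replicate, and the M15 ratios were 0.875 and 0.700. In KTS-minus replicate 1 the other autosomes ranged widely, up to a median of 6523 bp on chromosome 10.

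**Figure D2:**
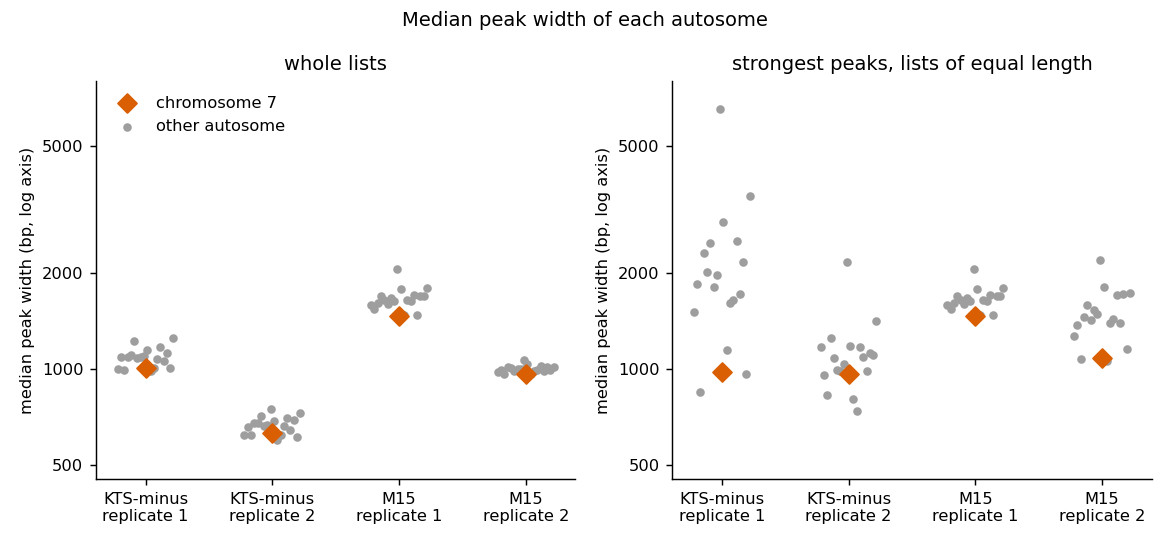
Median peak width in bp (vertical axis, log scale) of each autosome in each library, over whole lists on the left and over the strongest peaks, in lists of equal length, on the right. Chromosome 7 (orange diamond) stood at 1009 and 630 bp in KTS-minus and 1463 and 963.5 bp in M15 over whole lists, and at 977.5 and 964.5 bp in KTS-minus and 1463 and 1079 bp in M15 among the strongest peaks, in the lower part of the other autosomes (grey points).

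Very wide peaks were scarcer on this chromosome than on the other autosomes pooled, and they were not counted for each autosome apart. At 5 kb or more there were 13 and 2 peaks in the KTS-minus lists and 0 and 1 in the M15 lists. These are 0.197% and 0.0387% of chromosome 7 peaks in KTS-minus and 0% and 0.0971% in M15, against 1.06% and 0.131% of the peaks on the other autosomes in KTS-minus and 1.95% and 0.392% in M15. At 10 kb or more chromosome 7 had 2 peaks, both in KTS-minus replicate 1.

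The widest chromosome 7 peak of 3 lists lay in 1 place. It spanned chr7:26062000-26067712 in KTS-minus replicate 2 (5713 bp), chr7:26062836-26067595 in M15 replicate 1 (4760 bp) and chr7:26062566-26067612 in M15 replicate 2 (5047 bp). In KTS-minus replicate 1 the widest peak was elsewhere, at chr7:29157224-29171137 (13914 bp). The next widest there, chr7:46538709-46550430 (11722 bp), lay in the first Mb after the empty span.

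The empty span of 6 Mb held 0 peaks in each of the 4 lists. The gap around it was longer than the span itself. In KTS-minus replicate 1 the last peak before it ended at position 39354953 and the first peak after it started at 46356255, a gap of 7001301 bp. The gap was 7020868 bp in KTS-minus replicate 2, 10017457 bp in M15 replicate 1 and 7232320 bp in M15 replicate 2. On the right-hand side the KTS-minus lists resumed almost together, at 46356255 in replicate 1 and 46356401 in replicate 2.

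No other stretch of the autosomes or the X chromosome was as long. With all 4 lists joined, the gap of 7001301 bp was the longest after the first peak of any chromosome. The longest on the other chromosomes were 2012379 bp on chromosome 8 and 2000291 bp on chromosome 1, and the chromosome whose longest gap was shortest was chromosome 15, with 57427 bp. The median of the longest gaps over the other 18 autosomes was 243598 bp. The next longest gap on chromosome 7 itself was 310738 bp. Of 2649 bins of 1 Mb over all chromosomes, 8 (0.302%) were empty in every list after the first peak, and 6 of these 8 were the span. The first 3 Mb of each of the 20 chromosomes were empty as well. Whether reads can be placed in the span was not tested.

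The peaks that bordered the span were not strong. The last peak before it had a max signal of 14 and 18 in the KTS-minus lists and 32 and 7 in the M15 lists. The first peak after it had 7 and 14 in KTS-minus and 17 and 6 in M15. None of the 8 bordering peaks exceeded the median max signal of chromosome 7 in its list except the one on the left in KTS-minus replicate 1.

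The 2 bins beside the span differed from each other. The bin from 39 to 40 Mb held 35 and 38 peaks in the KTS-minus lists and 0 and 6 in the M15 lists. The bin from 46 to 47 Mb held 61 and 82 in KTS-minus and 0 and 11 in M15. Peaks covered 12.6% and 8.21% of this second bin in the KTS-minus lists, which placed it 7th and 2nd of 144 bins by covered bases. In M15 they covered 0% and 1.12%, and the bin ranked 31st in M15 replicate 2. The first bin after the span was thus not thinned out in the KTS-minus lists and M15 replicate 2. M15 replicate 1 had no peak until position 48887907. The next bin, from 47 to 48 Mb, was sparser, with 21 and 25 peaks in KTS-minus and 0 and 0 in M15.

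Outside the span and the first 3 Mb, peaks were uneven along the chromosome, as the profile in 1 Mb bins shows. Over 144 bins the median was 39 and 34 peaks per bin in the KTS-minus lists, with ranges of 10 to 130 and 4 to 127. In M15 it was 0 and 4, with ranges of 0 to 17 and 0 to 37. No bin was empty in the KTS-minus lists, whereas 74 of 144 (51.4%) were empty in M15 replicate 1 and 4 (2.78%) in M15 replicate 2. The 10 fullest bins held 15.9% and 14.8% of the peaks in KTS-minus and 47.2% and 24.9% in M15.

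**Figure D3:**
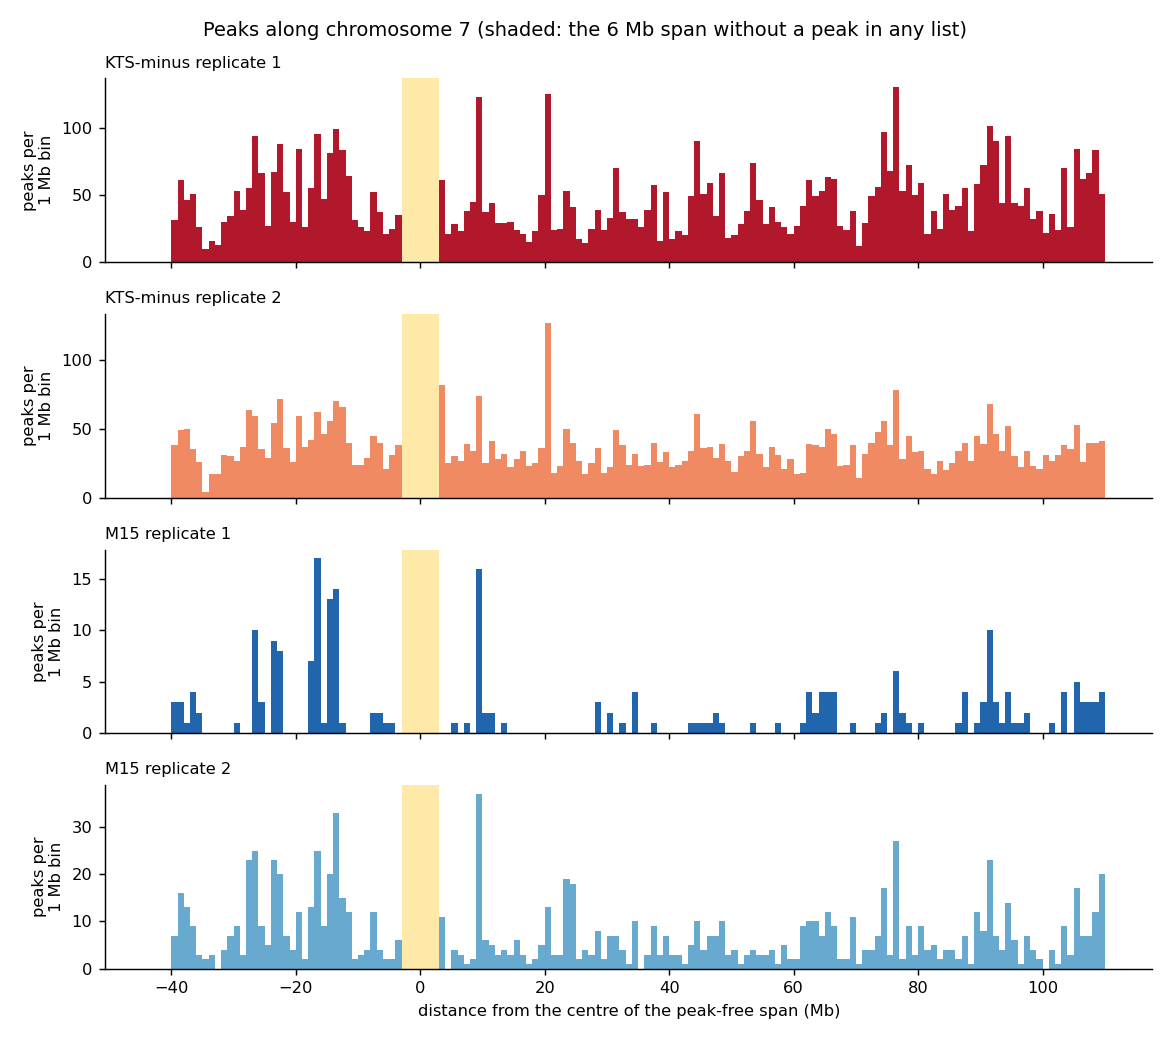
Number of peaks in each 1 Mb bin (vertical axis, a separate linear scale in each panel) against the distance in Mb from the centre of the peak-free span (horizontal axis), in the KTS-minus libraries above and the M15 libraries below. No bar stands inside the shaded 6 Mb, the highest bars reach 130 and 127 peaks in KTS-minus and 17 and 37 in M15, and the tall bars of the 4 panels stand largely at the same distances.

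The 5 bins that ranked highest over the 4 lists started at 52, 29, 119, 26 and 134 Mb. The bin at 52 Mb held 123 and 74 peaks in KTS-minus and 16 and 37 in M15. The bin at 29 Mb held 99 and 70 in KTS-minus and 14 and 33 in M15. The bin at 119 Mb held 130 and 78 in KTS-minus and 6 and 27 in M15, the bin at 26 Mb 95 and 62 in KTS-minus and 17 and 25 in M15, and the bin at 134 Mb 101 and 68 in KTS-minus and 10 and 23 in M15. The choice over both lines fixes that these bins are full in both. The bin at 63 Mb, picked after its values were seen, held 125 and 127 peaks in KTS-minus and 0 and 13 in M15. Of the KTS-minus peaks in this bin, 1 and 0 were in the lists of equal length, which 1.97% and 3.02% of all chromosome 7 peaks reached. The bins at 66 and 67 Mb were picked in the same way. Of the equal-length lists, the bin at 66 Mb held 12 and 3 peaks in KTS-minus and 0 and 12 in M15. The bin at 67 Mb held 15 and 6 in KTS-minus and 0 and 16 in M15, so the M15 replicates differed there. Because these bins were picked after their values were seen, no conclusion is drawn from these counts.

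Bin counts ranked alike across the lists. Spearman's rho over the 144 bins was 0.803 between the KTS-minus replicates and 0.632 between the M15 replicates. Between the lines it ranged from 0.563 for KTS-minus replicate 2 and M15 replicate 1 to 0.778 for KTS-minus replicate 1 and M15 replicate 2. Neighbouring bins share base composition and gene content, M15 replicate 1 had many tied bins at 0, and these values are a description without a test.

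The stretch before the span and the stretch after it were compared after the profile had been seen. From 3 to 40 Mb there were 47.9 and 39.6 peaks per Mb in KTS-minus and 2.78 and 9.95 in M15. From 46 Mb on there were 45.2 and 34.8 in KTS-minus and 1.22 and 6.21 in M15. The first stretch was denser by 1.06 and 1.14 times in KTS-minus and by 2.28 and 1.60 times in M15, so the excess was larger in both M15 lists. In the lists of equal length the values were 1.02 and 1.90 in KTS-minus and 2.28 and 1.86 in M15, which overlap between the lines.

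The 3 strongest chromosome 7 peaks of KTS-minus replicate 2 and the 2 strongest of replicate 1 sat together, in a window of 25 kb chosen after their ranks were seen, chr7:77490001-77515000. In KTS-minus replicate 2 the peaks at chr7:77503697-77505245, chr7:77499436-77499975 and chr7:77502545-77503203 ranked 2, 3 and 4 in the whole list, with max signals of 920, 580 and 380. In KTS-minus replicate 1 the peaks overlapping these places, in the same order, ranked 16, 38 and 24, with max signals of 198, 102 and 132. Between these stood a peak far from the window, chr7:12595673-12596397, at rank 32 with a max signal of 114. In M15 replicate 1 they ranked 1660, 911 and 2224 (49, 63 and 43), and in M15 replicate 2 they ranked 2823, 1419 and 872 (17, 22 and 26). The group thus had peaks in all 4 lists. The 3 places stood nearer to the head of the list in both KTS-minus lists than in both M15 lists. Their choice as the strongest KTS-minus peaks favours this order, so it is no evidence of a difference between the lines. Ranks in lists of such different length describe each list and do not measure a change. The window held 7 and 5 peaks in the KTS-minus lists and 4 and 5 in the M15 lists.

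**Figure D4:**
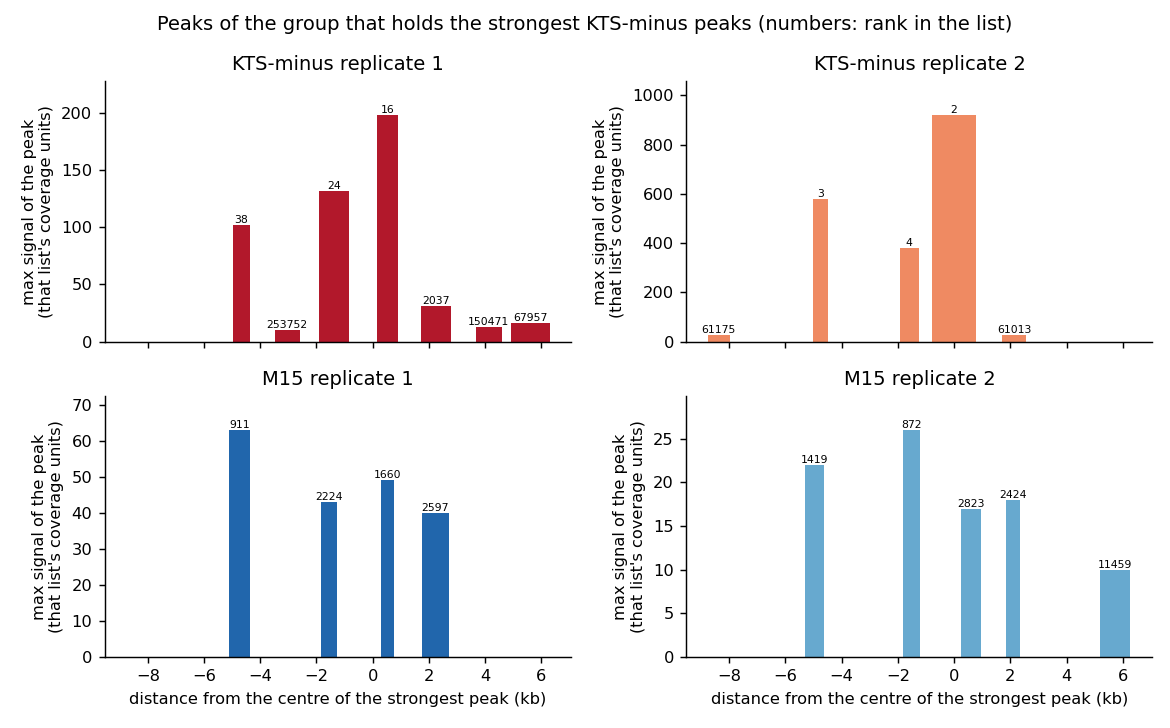
Max signal (vertical axis, in the coverage units of each list and therefore on a separate linear scale per panel) of the peaks around the strongest chromosome 7 peak of KTS-minus, against the distance in kb from its centre (horizontal axis). Bars span the peak widths and numbers give the rank in the list; the 3 leading peaks ranked 2 to 4 and 16 to 38 in the KTS-minus libraries and between 872 and 2823 in the M15 libraries.

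The strongest chromosome 7 peak of M15 was another one, at chr7:52822923-52824843. It had a max signal of 153 at rank 49 in M15 replicate 1 and of 48 at rank 87 in M15 replicate 2. The KTS-minus lists had it at rank 2873 with a max signal of 29 in replicate 1 and at rank 71 with 125 in replicate 2. The KTS-minus replicates thus differed widely at this place. Its ranks were not compared between the lines, whose lists differ greatly in length.

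Peaks of the 4 lists were next merged into regions wherever they shared at least 1 bp, which gave 10653 regions on chromosome 7. Regions with a peak in both libraries of a line are called reproducible in it. On chromosome 7, 212 regions were reproducible in M15, or 1.39 per Mb, the 6th lowest density of the 19 autosomes. Both KTS-minus libraries had a peak in 187 of the 212, 1 library had one in 23, and neither had one in 2, where the shares over all chromosomes were 93.7%, 5.05% and 1.23%. Of the other regions, 8930 had a peak in 1 KTS-minus library alone and 278 in 1 M15 library alone, 257 in 1 library of each line, 728 in both KTS-minus libraries alone, and 248 in both KTS-minus libraries and 1 M15 library.

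At an overlap of 1 bp, most M15 regions of chromosome 7 were thus present in KTS-minus. The share found by both KTS-minus libraries was 88.2% (95% Wilson interval 83.2% to 91.9%), against 5006 of 5336 (93.8%) on the other autosomes. KTS-minus peaks covered 4.95% and 2.49% of chromosome 7, which was chosen as sparse, against 16.8% and 7.35% of the other autosomes. How far this difference in covered bases enters the share at 1 bp was not tested. Chromosome 7 was the 3rd lowest of the 19 autosomes, after chromosomes 13 (74.3%) and 12 (81.7%), and chromosome 19 was the highest (99.7%). By single library, KTS-minus replicate 1 had a peak in 92.5% of the 212 regions and KTS-minus replicate 2 in 94.8%. Both the share and the order depend on the overlap required. At 50% reciprocal overlap the share was 49.7% on chromosome 7 and 39.5% on the other autosomes, chromosome 7 was 15th from the lowest, and 23 of its regions had no such peak in either KTS-minus library. When only the stretches of highest signal inside the peaks were compared, 24.6% of 65 regions were found by both KTS-minus libraries on chromosome 7 and 24.1% on the other autosomes, and chromosome 7 was 10th from the lowest. Without M15 replicate 1, the share over the 983 chromosome 7 regions with an M15 replicate 2 peak was 43.2%. The interval covers counting error only, and regions are not replicates.

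**Figure D5:**
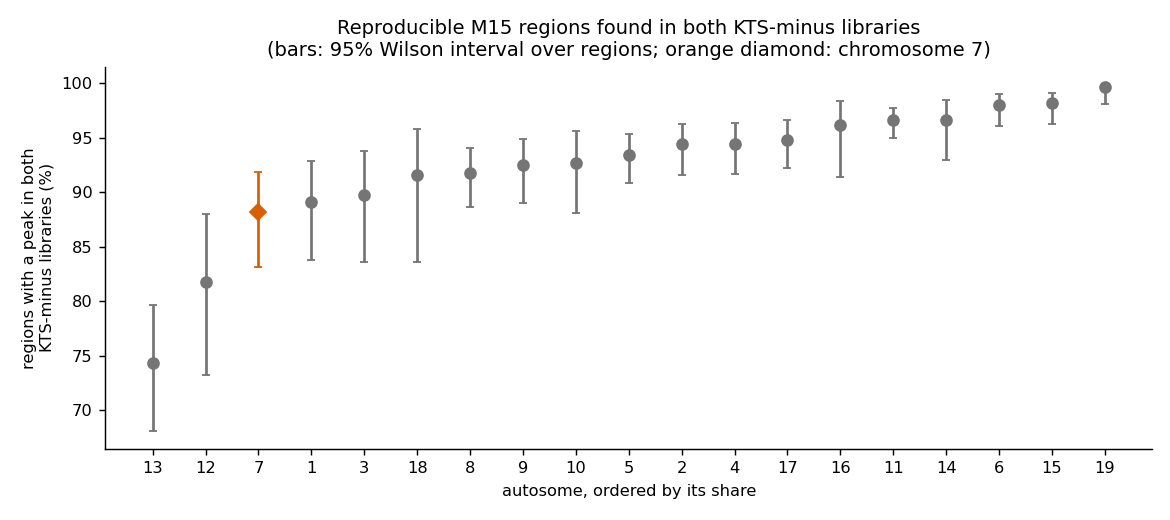
Percent of reproducible M15 regions found by both KTS-minus libraries (vertical axis, not starting at 0) on each autosome, ordered by this share from left to right; bars are 95% Wilson intervals over regions. Chromosome 7 (orange diamond) stands 3rd from the left at 88.2%, between 74.3% on chromosome 13 and 99.7% on chromosome 19, and its interval overlaps those of several neighbours.

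The regions missing from 1 KTS-minus list made up 10.8% of the 212, against a share of 5.05% over all chromosomes, the 3rd highest of the 19 autosomes. Of these 23 regions, 9 had a peak in replicate 1 only and 14 in replicate 2 only. In 8 of the 23 the list without an overlapping peak had one within 1000 bp, and the median distance to its nearest peak was 2270 bp, in a range of 453 to 125030 bp. The 3 of best M15 rank illustrate this. At chr7:107854576-107855416 the max signal was 24 in KTS-minus replicate 2, where replicate 1 had no peak, and 66 and 18 in M15. At chr7:146457748-146460806 it was 26 in KTS-minus replicate 1, with none in replicate 2, and 46 and 21 in M15. At chr7:137797828-137799799 it was 27 in KTS-minus replicate 2 and 55 and 13 in M15, and the nearest peak of KTS-minus replicate 1 lay 578 bp away.

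The 2 M15 regions with no KTS-minus peak made up 0.943% (95% Wilson interval 0.259% to 3.37%) of the 212, against 1.23% over all chromosomes, so chromosome 7 was near the background in this respect. At chr7:88464515-88465458 the KTS-minus peaks closest by lay at distances of 27326 bp and 10226 bp, and the M15 max signals were 41 and 16. At chr7:151874970-151876984 the distances were 13741 bp and 497 bp, and the M15 max signals were 11 and 8. The first thus lay between the median (36) and the upper quartile (48) of the chromosome 7 peaks in M15 replicate 1. In M15 replicate 2 it lay above the upper quartile (11). The second was among the weakest peaks of M15 replicate 1.

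Regions kept in KTS-minus tended to be the strong ones. When the 212 regions were split into 4 groups of 53 by their M15 signal, 96.2%, 92.5%, 79.2% and 84.9% of them, from strongest to weakest, were found by both KTS-minus libraries. On the other autosomes the shares were 98.5%, 95.6%, 93.3% and 87.9%. The largest difference from chromosome 7 was in the third group. The median max signal in the M15 lists was 37 and 15 for the regions found by both KTS-minus libraries and 33 and 12 for those found by 1. Before the empty span 84 of 91 regions (92.3%) were found by both KTS-minus libraries, and after it 103 of 121 (85.1%), with Wilson intervals of 85.0% to 96.2% and 77.7% to 90.4% that overlap.

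The KTS-minus peaks at M15 regions were stronger and wider than the other KTS-minus peaks of the chromosome. KTS-minus replicate 1 had 215 peaks at reproducible M15 regions, with a median max signal of 20 against 12 elsewhere on chromosome 7 and a median width of 1805 bp against 1000.5 bp. KTS-minus replicate 2 had 253, with 31 against 20 and 1137 bp against 616 bp. Both replicates showed this, and it was not particular to chromosome 7. On the other autosomes replicate 1 had 20 against 13 and 2397 bp against 1097 bp. Replicate 2 had 28 against 20 and 1161 bp against 667 bp there. A choice by 1 bp overlap also favours wide peaks.

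The 187 regions with a peak in all 4 lists lay high in the long lists. Rank is given here as percent of the list length, so a low value is a strong peak. The median rank of these regions was 7.45% and 6.43% in the KTS-minus lists, where the median over all chromosome 7 peaks was 59.0% and 50.2%. It was 45.2% and 6.16% in the M15 lists, where the median over all chromosome 7 peaks was 48.2% and 39.6%. M15 replicate 1 is so short that most of its chromosome 7 peaks are in such regions, and its value carries little.

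These shared regions ranked less high on chromosome 7 than on the other autosomes in both KTS-minus lists and in M15 replicate 2, while M15 replicate 1 had nearly equal medians. The medians elsewhere were 4.25% and 4.40% in KTS-minus and 45.4% and 5.77% in M15, and chromosome 7 was 17th of 19 from the strongest in both KTS-minus lists and 8th and 13th in M15. Of the 187, 46 and 68 (24.6% and 36.4%) were in the lists of equal length in KTS-minus, against 37.7% and 42.4% elsewhere. In M15 replicate 2 there were 121 (64.7%), against 71.7% elsewhere. Their median width was 1877 bp and 1192 bp in KTS-minus, against 2749.5 bp and 1468.5 bp elsewhere, and 1499 bp and 1273 bp in M15, against 1669.5 bp and 1549 bp.

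The 6 shared regions of best mean rank over the 4 lists are given next. This choice fixes that they are strong in both lines. At chr7:36118088-36120547 the max signal was 54 and 132 in KTS-minus and 105 and 43 in M15. At chr7:26051398-26053894 it was 42 and 129 in KTS-minus and 110 and 37 in M15. At chr7:20300173-20302561 it was 44 and 82 in KTS-minus and 102 and 41 in M15. All 3 lie before the empty span, the second of them within 10 kb of the place that holds the widest peak in 3 lists.

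The other 3 lie after the span. At chr7:52271348-52274066 the max signal was 54 and 65 in KTS-minus and 111 and 29 in M15. At chr7:119441081-119445251 it was 45 and 98 in KTS-minus and 74 and 26 in M15. At chr7:52184020-52185954 it was 36 and 77 in KTS-minus and 116 and 30 in M15. Of these 6 regions, 2 fall in the bin at 52 Mb, 1 in the bin at 26 Mb and 1 in the bin at 119 Mb, which are among the 5 fullest bins. Full bins offer more regions to choose from, and the number to be expected there was not worked out. Signals were not compared between lists, since each list has its own scale.

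Regions found in the KTS-minus line without M15 made up a smaller share on chromosome 7 than elsewhere. Of 1163 regions reproducible in KTS-minus, 728 (62.6%) had no M15 peak, against 74.8% on the other autosomes and 73.7% over all chromosomes. This was the 3rd lowest share of the 19 autosomes. At 50% reciprocal overlap the count of such regions on chromosome 7 was 354. In whole lists the KTS-minus replicates also overlapped less here. KTS-minus replicate 2 overlapped 18.2% of the chromosome 7 peaks of replicate 1, against 28.1% on the other autosomes, and replicate 1 overlapped 25.2% of those of replicate 2, against 41.7%. M15 replicate 2 overlapped 94.4% of the M15 replicate 1 peaks, against 95.6% elsewhere, and M15 replicate 1 overlapped 22.3% of those of replicate 2, against 11.8%. These orders did not all hold in lists of equal length. There KTS-minus replicate 2 overlapped 33.8% of the chromosome 7 peaks of replicate 1, against 29.3% elsewhere, and replicate 1 overlapped 30.1% of those of replicate 2, against 33.7%. M15 replicate 1 overlapped 67.6% of those of M15 replicate 2, against 70.4% elsewhere, and M15 replicate 2 overlapped 59.2% of those of M15 replicate 1, against 66.9%.

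Of these 728 regions 1, at chr7:134027691-134028853, was in the lists of equal length of both KTS-minus libraries, with max signals of 28 and 53. Over all chromosomes it was 44 of 61442 regions (0.0716%), and a count of 1 cannot be set apart from that share. The nearest M15 peaks lay 84333 bp and 84323 bp away. It falls in the bin at 134 Mb, 1 of the 5 fullest.

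The comparison was repeated with lists of equal length, where the reduced lists formed 421 regions on chromosome 7. All 4 lists shared 32 of them (7.60%), against 9.13% on the other autosomes and 8.69% over all chromosomes, and 249 (59.1%) were in 1 list. Both KTS-minus lists without M15 held 2 (0.475%), against 1.40% on the other autosomes and 1.98% over all chromosomes. Both M15 lists without KTS-minus held 63 (14.96%), against 11.3% on the other autosomes and 10.6% over all chromosomes. At equal length chromosome 7 thus had more regions of M15 alone than of KTS-minus alone, as did the other autosomes.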

How the data were processed

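WT1 was profiled by CUT&RUN in KTS-minus and M15 cells, with 2 libraries each, grouped by sample title. The submitters' processing notes name SEACR 1.3, Bowtie2 2.2.6, FastQC 0.11.8, SAMtools 1.3, Picard 2.5.0 and bedtools 2.23.0, with mm9 as the build. Each library has its own deposited list, whose columns, in SEACR's layout, give each peak's position, total signal and max signal. The signals are the authors' coverage values and were whole numbers in all 4 lists. How coverage was scaled, which control and threshold were set and how spike-in DNA was used is not given in the sources used here, so signals were used only to rank or describe peaks inside a list, and depth is unknown.

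Chromosome 7 and all lists of regions were chosen with earlier results of these data known. Peaks were counted in 1 Mb bins by their middle and merged at 1 bp overlap, and coordinates count from 1. Equal-length lists took 6440 peaks by max signal, with ties broken by total signal. With 2 libraries against 2 the smallest p of an exact permutation test is 0.333. Shares have 95% Wilson intervals where given. Regions were named by a rule: the 6 of best mean rank in all 4 lists, every reproducible M15 region without KTS-minus peak, up to 6 strong KTS-minus regions without M15, the 3 best M15 regions with 1 KTS-minus library, the borders of the empty span, the widest peaks and the 5 fullest bins. Other places are named as chosen later. Alternatives changed the ranking, the overlap, the bins, the list length and the libraries. Merging was tested on simulated lists. Python 3.11.15, numpy 2.4.6, pandas 2.3.3, scipy 1.17.1 and matplotlib 3.10.9 were used.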

Additional observations from a re-analysis of the deposited data

How the results depend on the processing

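The labels give no pairing of KTS-minus and M15 replicates, so no paired analysis was made, and the results come from no test. Of 90 alternative values for 16 results, 52 stayed within the limit and 38 moved. The limit was 1.5-fold for counts and the empty span, and 1 SD for the rest. Leaving out 1 of 2 replicates cannot pass 1 SD for density, share, width, signal or rank within a line, so those values test nothing. Only ratios set against 1 could turn round, and none did. The order of the kept share did change: it was 88.2% against 93.8% on the other autosomes at 1 bp. At 50% reciprocal overlap it was 49.7% against 39.5%. The density ratio of chromosome 7 to the other autosomes in KTS-minus (0.358) was 0.371 without empty bins, 0.274 for the top 50% of each list by total signal and 0.317 by covered bases. The share of the equal-length list (2.22% in KTS-minus, 3.39% in M15, ratio 0.654) was 0.924% and 2.72% (0.340) by total signal, 3.24% and 4.16% (0.780) without chromosomes 6, 10 and X, and in whole lists 2.65% in M15 (0.797). The width ratio was 0.640 in KTS-minus and 0.788 in M15 at equal length, and 0.936 in KTS-minus against the median autosome, and the M15 signal ratio was 1.00 by total signal against 1.09. With stretches of highest signal there were 65 reproducible M15 regions, of which 24.6% were kept and 22 were in neither KTS-minus list, and 118 KTS-minus regions without M15. With the top 50% these values were 102, 90.2%, 0 and 280. At 50% reciprocal overlap 49.7% were kept, 23 were in neither and 354 were without M15. The median rank of shared regions in KTS-minus (6.94%) was 4.69% at 50% reciprocal overlap and 4.70% with the top 50% of each list. Leaving out 1 library gave 224 to 983 reproducible M15 regions, 43.2% to 94.8% kept, 4 to 278 in neither and 738 to 5921 KTS-minus regions without M15. This asks for a peak in 1 library of a line instead of 2, so these counts could only rise. The kept share could only rise when a KTS-minus library was left out. The direction of those changes tests nothing. Causes were not tested.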
